A study of Homo sapiens with 18 samples.

Results

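Cytosolic chaperones and heat-shock genes were followed as a group of 42 genes named by function, all of them present among the 47021 genes of the count table and all of them abundant enough to be tested. The cells were DLD1, an established human colorectal adenocarcinoma line, grown in DMEM with fetal bovine serum. They were infected with lentivirus and selected with 10 µg/ml puromycin, and this holds for every group. The poly(A) RNA libraries compared fell into 3 groups: sgC, a control guide in cells labelled WT, and sgZ1 and sgZ3, guides 1 and 3 against the zinc-finger gene ZNF692 in cells labelled ZNF692 KO. Each group had 3 libraries, and 9 ribosomal RNA libraries of the same design hold none of the 42 genes and were not used here. The labels do not say whether each group was a pool or a clone, nor that replicates were separate cultures. The p-values therefore reflect the spread among these libraries alone, and that spread may be technical.

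Chaperones bind other proteins while they fold, assemble or are damaged. HSP70 proteins bind short exposed stretches in cycles of ATP hydrolysis that J-domain proteins start and exchange factors end, HSP90 acts later on clients such as kinases and steroid receptors with the help of co-chaperones, and the ring complex TRiC encloses actin, tubulin and other proteins. Heat shock factor 1 (HSF1) raises many of these genes after heat or proteotoxic stress by binding repeats of the letters GAA and TTC, called heat shock elements, and tumour cell lines commonly hold high chaperone levels without heat.

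Total counts ran from 16044224 to 24535642 per library, and 14732 genes passed the filter on low counts. ZNF692 mRNA was not lower in the libraries labelled knockout: it had 6.18 to 7.01 CPM (counts scaled to library sizes adjusted by TMM factors) in sgC, 9.64 to 11.5 in sgZ1 and 6.29 to 8.08 in sgZ3. The summed level of 8 colonic epithelial markers was 7442 to 8116 CPM in sgC, 7178 to 7969 in sgZ1 and 8985 to 9630 in sgZ3, with CDX1 below 1 CPM throughout. sgZ1 replicate 2 and sgZ3 replicate 3 stood apart: VIM, the mesenchymal filament gene, was at 22.9 and 21.2 CPM there and at most 1.22 CPM elsewhere. The 10 mesenchymal markers summed to 114 and 117 CPM in those libraries and 9.47 to 13.7 CPM in the others, while COL1A2, COL3A1, DCN and LUM stayed below 1 CPM in all. In bulk RNA, fewer cells of a type and less RNA per cell cannot be told apart. Counts of calls, and values for some genes, are therefore also given over the 7 libraries that remain without that pair. Leukocyte markers summed to 4.23 to 6.04 CPM, with CD68 at 0, and endothelial markers to 2.01 to 3.67 CPM.

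Heat shock elements were looked for in the RefSeq promoter windows (GRCh38.p14, 250 bases before to 50 after each start), because HSF1 is known to act through such sites at many chaperone genes. Windows were found for 38 genes, 54 windows in all, and none for CCT6A, FKBP4, HSF1 and ST13. The pairs GAANNTTC and TTCNNGAA read the same on both strands, and the 3-repeat form, searched on both strands, joins them: GAA, TTC and GAA with NN between neighbours, or TTC, GAA and TTC on the other strand. A pair stood in 20 of the 54 windows, belonging to 19 genes, and in 13.5% of all 35116 windows. The 3-repeat form stood in 7 windows of 7 genes and in 0.490% of all windows. These 7 stretches of 30 bases are shown, followed by pair-only stretches of the heat-inducible genes HSPA1B and DNAJB1, each 5′ to 3′ on the gene's strand with the matched letters in capitals.
CHORDC1, chr11:90223083-90223112, minus strand: ccgGAAAATTCGCGAAGGTTCCTGAAacgc
DNAJA1, chr9:33025268-33025297, plus strand: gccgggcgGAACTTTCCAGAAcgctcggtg
DNAJB6, chr7:157336865-157336894, plus strand: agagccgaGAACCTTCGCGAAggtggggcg
HSP90AA1, chr14:102087111-102087140, minus strand: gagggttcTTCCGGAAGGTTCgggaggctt
HSP90AB1, chr6:44247823-44247852, plus strand: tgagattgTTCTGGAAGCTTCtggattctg
HSPA8, chr11:123062170-123062199, minus strand: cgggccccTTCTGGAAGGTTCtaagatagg
HSPD1, chr2:197500061-197500090, minus strand: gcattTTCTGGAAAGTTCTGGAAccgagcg
HSPA1B, chr6:31827622-31827651, plus strand: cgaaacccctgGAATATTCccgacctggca
DNAJB1, chr19:14518426-14518455, minus strand: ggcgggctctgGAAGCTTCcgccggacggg
Such a match is a description of the letters and not of binding. CHORDC1 and HSPD1 carry the longest runs of repeats among the stretches shown.

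In the fit of all 9 libraries no chaperone gene was called lower against sgC by either ZNF692 guide or by their mean. Taking the mean of sgZ1 and sgZ3 minus sgC, 26 of the 42 genes (61.9%) rose and 0 fell in the quasi-likelihood test of edgeR, with a false discovery rate under 0.05 over all genes, against 18.6% of all tested genes called higher, 14.6% called lower and 33.2% called in either direction. The median log2 change was 0.31 over the 42 genes and 0.01 over all tested genes. For sgZ1 alone 20 were called higher and 0 lower, beside 15.5% and 10.3% of all genes, with a median log2 change of 0.30. For sgZ3 alone 26 were called higher and 0 lower, beside 19.2% and 17.1% (36.3% in either direction), with a median of 0.39. Both guides called 18 of the genes higher, sgZ3 alone a further 8, sgZ1 alone 2 (HSF1 and TRAP1) and neither guide 14. Of the genes called by 1 guide only, HSPA8 and HSF1 were also called for sgZ3 minus sgZ1, and the rest were not. The share of all tested genes called by both guides was not computed. The comparisons of the guides share their sgC libraries and are not independent of each other. The 42 genes took 1.81 to 1.91% of the counts of the sgC libraries, 2.14 to 2.29% in sgZ1 and 2.10 to 2.24% in sgZ3, so the ranges of the groups labelled knockout lay above that of sgC. All 6 sgZ1 and sgZ3 libraries lay above all 3 sgC libraries for 24 genes and below them for 0, where 11.9% of all tested genes lay above and 11.5% below.

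The direction of calls over the whole table moved with the scaling. Of all calls over both guides 56.0% were higher with TMM factors, 45.9% with upper-quartile factors and 36.6% with library totals alone, while 25 and 23 of the 42 chaperone genes were called higher under the last pair of settings and 0 lower under either. Of all tested genes 15.4% and 12.8% were called higher under that pair of settings. With library totals alone the median log2 change of all genes in sgZ3 went from -0.02 to -0.17, and that of the 42 genes was 0.23. Leaving out a control library gave the lowest counts: 16 genes were called higher without sgC replicate 1 and 15 without sgC replicate 3, where the share of all tested genes called higher also fell, to 8.96% and 9.54%. Without sgZ1 replicate 2 and sgZ3 replicate 3, 27 genes were called higher and 1 lower, beside 23.1% and 26.6% of all genes (49.6% in either direction), and the 1 lower gene was HSPA1A. Calls for 14 of the 26 genes held under every alternative listed in the closing section: HSP90AB1, HSPA8, DNAJA1, DNAJB1, FKBP4, FKBP5, STIP1, CHORDC1, AHSA1, CDC37, BAG1, TCP1, CCT3 and CCT5.

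**Figure D1:**
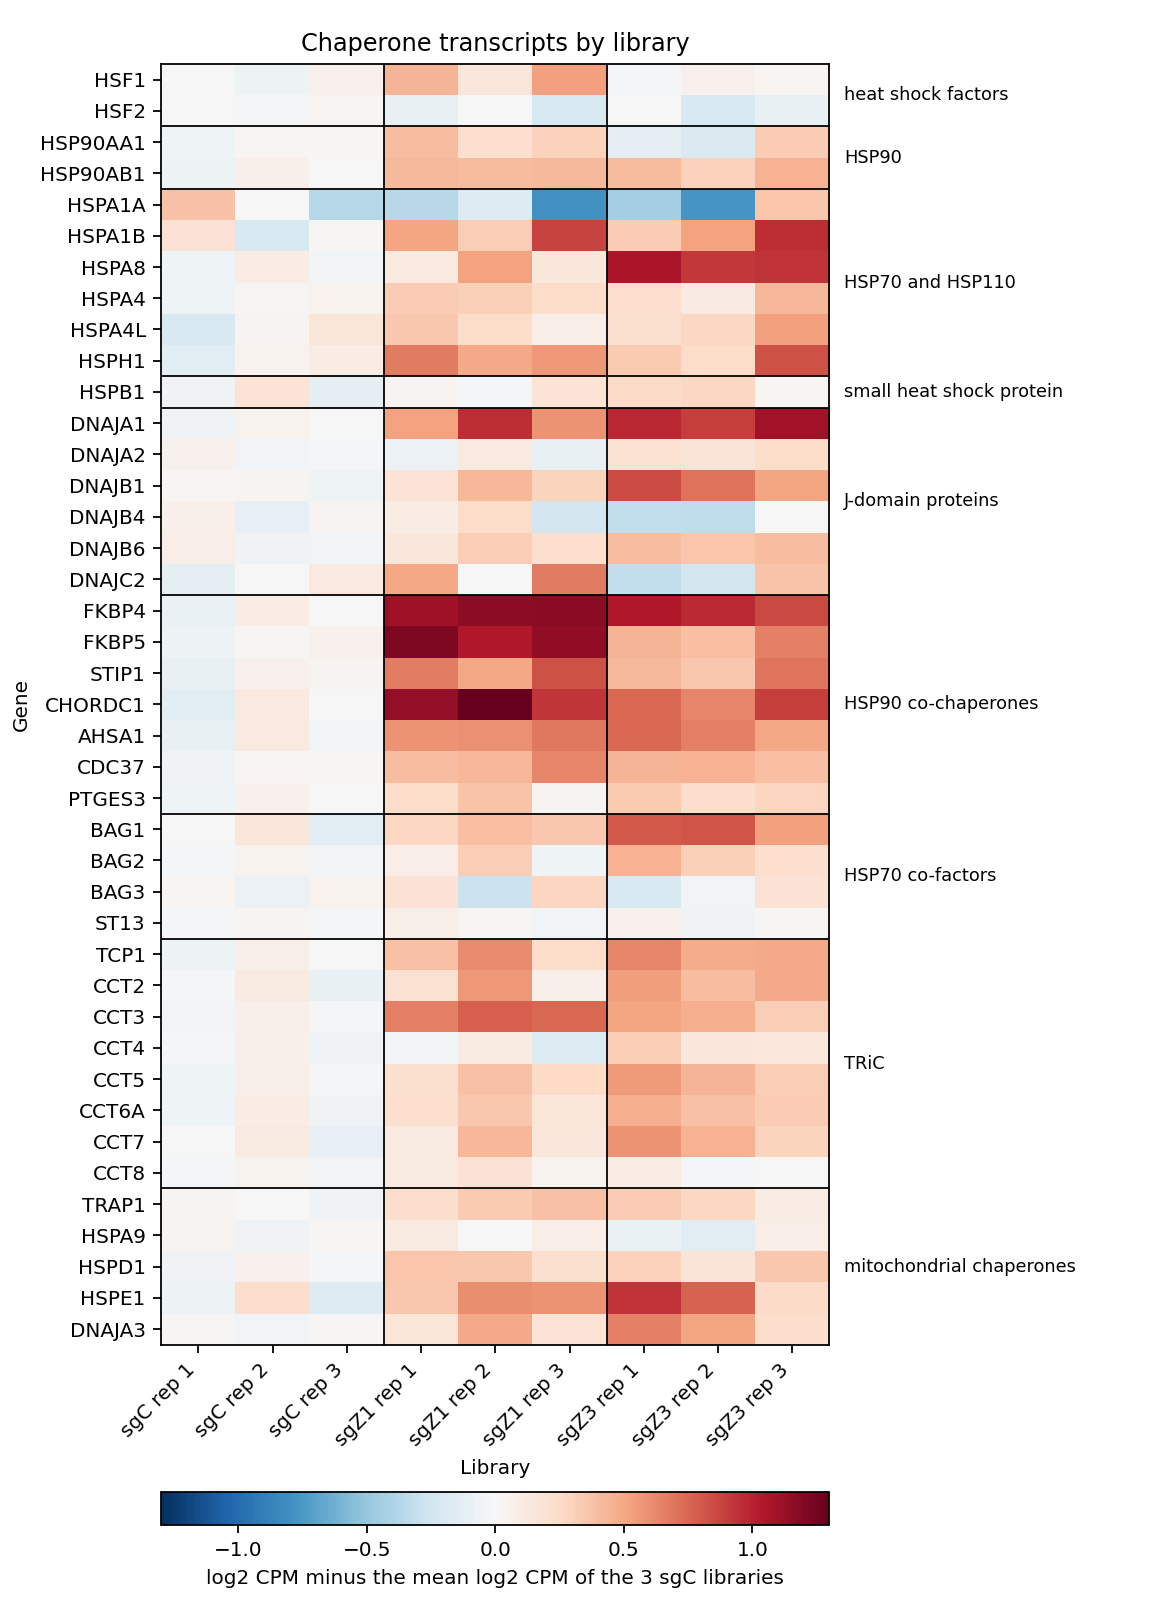
Level of 41 chaperone and heat-shock genes in each of the 9 poly(A) libraries, as log2 CPM minus the gene's mean log2 CPM in sgC, with genes in rows by role and libraries in columns. DNAJC7, at 0.203 to 0.640 CPM, is left out. Most rows of the HSP90 co-chaperones and TRiC are above 0 in the 6 libraries labelled knockout, and HSPA8 stands out in sgZ3.

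The heat shock factors did not move as a pair. HSF1, the main activator of the heat shock response, was at 83.2, 79.2 and 86.2 CPM in sgC, 113, 91.9 and 120.1 CPM in sgZ1, and 81.2, 86.2 and 84.0 CPM in sgZ3 (replicates 1, 2 and 3 throughout). Every sgZ1 library was above every sgC library, and the sgZ3 libraries fell within the sgC range. Its log2 change was 0.39 in sgZ1 (SE 0.10, adjusted p = 0.018 by edgeR with Benjamini-Hochberg adjustment, as for every adjusted p here) and 0.02 in sgZ3 (adjusted p = 0.92), and the difference between the guides was -0.37 (adjusted p = 0.021). Leaving out sgC replicate 1 (adjusted p = 0.072) or 2 (0.078) ended the sgZ1 call, as did leaving out sgZ1 replicate 1 (0.056) or 3 (0.067), and the difference lost its call without sgZ1 replicate 1 (0.081) or 3 (0.077), without sgZ3 replicate 1 (0.08) or 2 (0.057) and with the compared groups alone (0.066). Over the 7 libraries HSF1 changed by 0.48 in sgZ1 (adjusted p = 4.2e-05), and the difference was -0.51 (4.0e-05). Over both guides HSF1 was not called in the fit of all 9 libraries. It was called without sgZ1 replicate 2 (0.029) and over the 7 libraries (0.010), where 49.6% of all genes were called. HSF2, a related factor active in development, was at 26.1, 25.7 and 26.7 CPM in sgC, 24.6, 26.0 and 22.7 CPM in sgZ1, and 26.2, 22.9 and 24.5 CPM in sgZ3. The groups overlapped, with a log2 change of -0.10 over both guides (95% interval -0.26 to 0.07). HSF1 protein is controlled after translation, and mRNA levels do not measure its activity.

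Of the cytosolic HSP90 pair, the constitutive gene rose, and the inducible one was called for sgZ1 under some alternatives only. HSP90AB1, the constitutive form, had 2457, 2695 and 2570.4 CPM in sgC, 3448, 3413 and 3447 CPM in sgZ1, and 3433, 3169.8 and 3515 CPM in sgZ3. No library labelled knockout came near the sgC range. The log2 change over both guides was 0.40 (SE 0.066, adjusted p = 0.0012), and per length it was the most abundant of the 42 genes in sgC at 864 CPM per kilobase of exon. HSP90AA1, the stress-inducible form, had 1514, 1606 and 1605 CPM in sgC, 2074, 1830.1 and 1936 CPM in sgZ1, and 1443, 1381 and 1972 CPM in sgZ3. All 3 sgZ1 libraries were above sgC, while in sgZ3 replicates 1 and 2 were below sgC and replicate 3, which carries VIM, was above it. Its log2 change was 0.31 in sgZ1 (adjusted p = 0.083) and 0.02 in sgZ3 (adjusted p = 0.90). HSP90AA1 was called higher in sgZ1 without a filter on low counts (adjusted p = 0.018), with the compared groups alone (0.027) and without sgZ3 replicate 3 (0.0085). Over the 7 libraries it was called higher in sgZ1 (0.34, adjusted p = 0.0012) and lower in sgZ3 (-0.20, adjusted p = 0.032). A promoter window of each gene holds the 3-repeat element shown above, and the other windows of these genes hold no pair. Of the HSP90AB1 transcript sequence, 16.6% of 50-base stretches also occur in other genes.

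The HSP90 co-chaperones were the role group with the most complete rise: 7 of 7 were called higher over both guides, with a median log2 change of 0.63, 6 of 7 in sgZ1 and 7 of 7 in sgZ3. Of all tested genes 18.6%, 15.5% and 19.2% were called higher in these comparisons. Their summed level was 1431 ± 67.7 CPM in sgC, 2083 ± 30.7 in sgZ1 and 1989 ± 55.7 in sgZ3 (SD, n = 3 each). FKBP4 encodes the immunophilin FKBP52, which promotes steroid receptor signalling on HSP90, and lies at chr12:2794953-2805423 on the plus strand. It was at 132, 150.0 and 139.8 CPM in sgC, 302, 313 and 317 CPM in sgZ1, and 289, 276 and 255 CPM in sgZ3. The lowest library labelled knockout was far above the highest control, and the log2 change over both guides was 1.05 (SE 0.077, adjusted p = 2.1e-05), the largest of the 42. FKBP5, which encodes FKBP51, the immunophilin that opposes FKBP52 on steroid receptors, was at 17.5, 18.5 and 19.1 CPM in sgC, 42.7, 37.6 and 40.7 CPM in sgZ1, and 25.0, 24 and 28.9 CPM in sgZ3. The 3 groups did not overlap, with sgZ3 between the others. FKBP5 rose by a log2 change of 1.14 in sgZ1 and 0.50 in sgZ3 (adjusted p = 9.5e-06 and 0.0042), and the difference between guides was -0.63 (SE 0.10, adjusted p = 0.00082). Both immunophilin genes were above sgC in every library labelled knockout.

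CHORDC1, which encodes the HSP90-binding protein Morgana, was at 38.0, 45.8 and 42.0 CPM in sgC, 92.1, 107 and 79.9 CPM in sgZ1, and 70.2, 65.2 and 77.9 CPM in sgZ3. All libraries labelled knockout were above control, and sgZ1 was above sgZ3 throughout. The log2 change was 1.15 in sgZ1 and 0.76 in sgZ3 (adjusted p = 3.6e-05 and 0.0012), and the difference between guides was -0.39 (adjusted p = 0.032). That difference was no longer called without sgC replicate 3 (adjusted p = 0.052), without sgZ1 replicate 1 (0.086) or 2 (0.064), without sgZ3 replicate 1 (0.098) or 2 (0.14), or with the compared groups alone (0.07). AHSA1, the activator of the HSP90 ATPase, was at 133, 156 and 139 CPM in sgC, 214, 215 and 229 CPM in sgZ1, and 239, 224 and 202 CPM in sgZ3. The guides gave nearly equal log2 changes, 0.62 and 0.63 (adjusted p = 0.00054 and 0.00073), and the interval of their difference was -0.17 to 0.20. STIP1 (HOP), which links HSP70 to HSP90, had means of 254 ± 14.2 CPM (sgC), 403 ± 45.7 CPM (sgZ1) and 357 ± 46.0 CPM (sgZ3) (adjusted p = 0.0015 over both guides). CDC37, which brings kinases to HSP90, went from 195 ± 5.40 to 274 ± 24.4 and 262 ± 6.0 CPM (adjusted p = 0.0012). PTGES3 (p23), which stabilises the closed HSP90, had the smallest change of the group, from 639 ± 24.7 to 743 ± 86.0 and 778 ± 29.9 CPM. Its log2 change of 0.25 over both guides (adjusted p = 0.033) was the least stable call: it was lost under 9 alternatives, up to an adjusted p of 0.15 without sgC replicate 1, and also without sgC replicate 2 (0.066) or 3 (0.12), sgZ1 replicate 1 (0.055) or 2 (0.072), sgZ3 replicate 1 (0.068) or 2 (0.053), with upper-quartile factors (0.064) and with library totals alone (0.14).

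**Figure D2:**
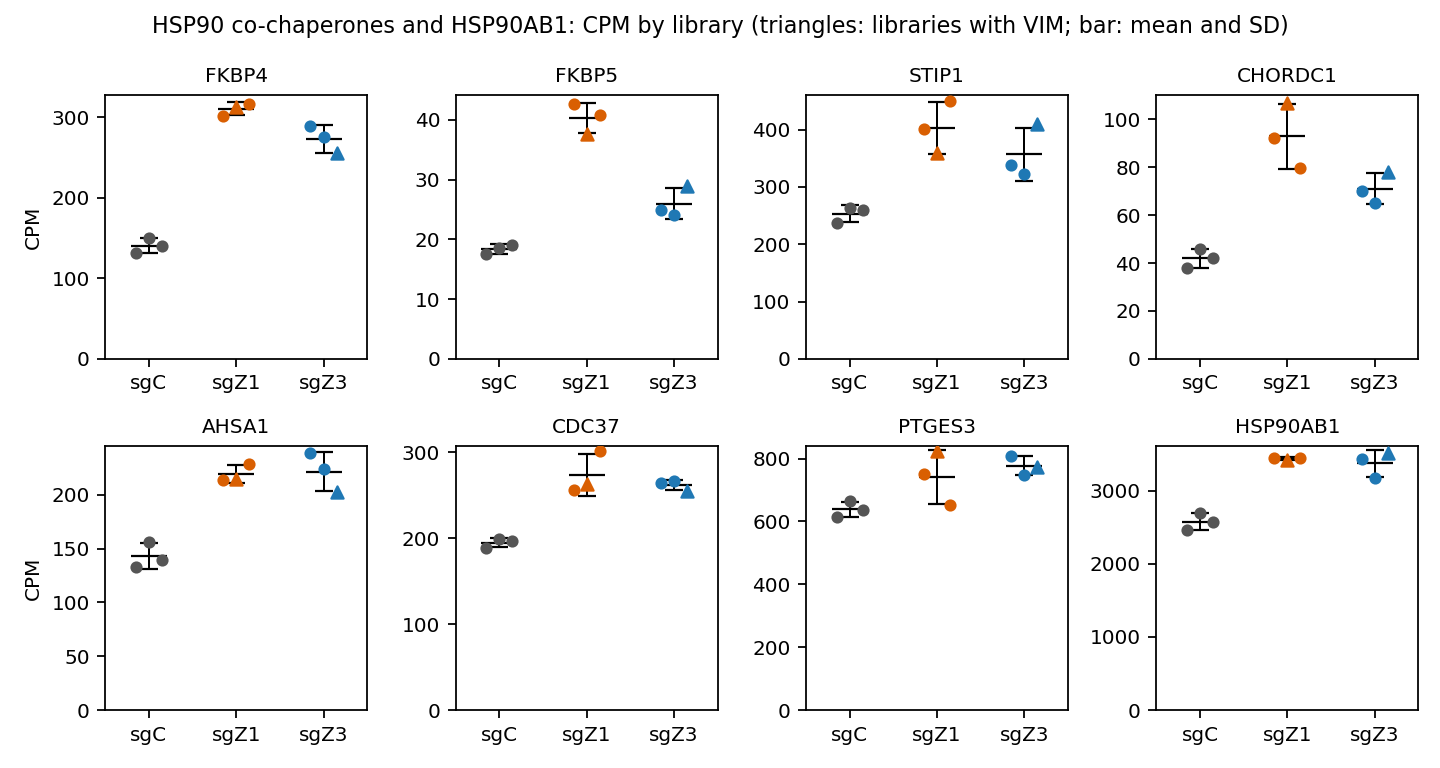
CPM of the 7 HSP90 co-chaperones and of HSP90AB1 by guide, on linear axes from 0. Points are the 3 libraries of each guide, triangles those with VIM, and the bars are the mean with the SD. FKBP4 is at 132 to 150.0 CPM in sgC and 255 to 317 CPM in the libraries labelled knockout, and FKBP5 in sgZ3 sits between sgC and sgZ1.

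Among the HSP70 and HSP110 genes 4 of 6 were called higher over both guides, 3 of 6 in sgZ1 and 4 of 6 in sgZ3, beside 18.6%, 15.5% and 19.2% of all tested genes. The summed level was 2101 ± 100.0 CPM in sgC, 2607 ± 276 in sgZ1 and 3696 ± 182 in sgZ3 (SD, n = 3 each). HSPA8, the constitutive HSC70 and the most abundant gene of this role, made most of that sum. It was at 1416, 1574 and 1443 CPM in sgC, 1610.4, 2119 and 1629.5 CPM in sgZ1, and 3076, 2787 and 2836 CPM in sgZ3. The sgZ3 libraries stood clear of all others, and within sgZ1 replicate 2, which carries VIM, was the highest. HSPA8 rose by a log2 change of 0.97 in sgZ3 (SE 0.11, adjusted p = 0.00018), was at 0.27 in sgZ1 (adjusted p = 0.081), and differed between the guides by 0.70 (SE 0.11, adjusted p = 0.00061). Over the 7 libraries the sgZ1 change was 0.12 (adjusted p = 0.24), and that of sgZ3 was 0.94 (adjusted p = 5.7e-10).

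HSPA1A and HSPA1B are neighbouring, stress-inducible HSP70 genes at chr6:31815464-31817946 and chr6:31827735-31830255, both on the plus strand, and are the classical readout of the heat shock response. Of the 50-base stretches of HSPA1A 71.3% also occur in HSPA1B, and of those of HSPA1B 71.4% occur in HSPA1A, so the split of reads between them is uncertain, and over all libraries 355 counts went to HSPA1A and 4811 to HSPA1B. HSPA1B was at 22.4, 17.1 and 19.8 CPM in sgC, 28.0, 24.4 and 36.1 CPM in sgZ1, and 24.6, 28.2 and 38.2 CPM in sgZ3. All 6 libraries labelled knockout were above sgC, by a margin smaller than their own spread, and the level stayed far below that of HSPA8. The log2 change over both guides was 0.60 (SE 0.16, adjusted p = 0.015), a call that ended on leaving out sgC replicate 2 (adjusted p = 0.071) or 3 (0.062). HSPA1A was at 1.28 to 2.87 CPM in all libraries with overlapping groups (log2 change -0.32, adjusted p = 0.35), and over the 7 libraries it was called lower (-0.63, adjusted p = 0.018).

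HSPH1 and HSPA4 encode HSP110 proteins, which exchange the nucleotide of HSP70. HSPH1 was at 189.6, 215 and 222 CPM in sgC, 332, 294 and 308 CPM in sgZ1, and 263, 245 and 369 CPM in sgZ3. Each group labelled knockout was above sgC, and sgZ3 replicate 3 was the highest of the 9. Its log2 change over both guides was 0.53 (SE 0.12, adjusted p = 0.0071), and it was lost without sgC replicate 1 (adjusted p = 0.057). HSPA4 was at 355, 373 and 379.9 CPM in sgC, 463, 459 and 434 CPM in sgZ1, and 430.1, 398 and 498 CPM in sgZ3. The groups did not overlap with sgC, and the log2 change over both guides was 0.28 (SE 0.081, adjusted p = 0.022). That call was lost without any 1 sgC replicate (adjusted p = 0.12, 0.067 and 0.068 for replicates 1, 2 and 3) and with library totals alone (0.11). The call of HSPA4 in sgZ3 was lost under 12 of 17 alternatives. Over the 7 libraries its log2 change in sgZ3 was 0.12 (adjusted p = 0.21). HSPA4L, a testis-enriched relative, averaged 23.2 ± 2.83 CPM in sgC, 27.1 ± 2.44 in sgZ1 and 29.2 ± 3.60 in sgZ3 and was not called (adjusted p = 0.071 over both guides). HSPB1, the small heat shock protein HSP27, which holds unfolded proteins without ATP, was at 586, 686 and 554 CPM in sgC, 623, 599 and 684 CPM in sgZ1, and 723, 733 and 619 CPM in sgZ3. These groups overlapped, and the interval of the log2 change over both guides was -0.05 to 0.30.

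J-domain proteins deliver clients to HSP70 and start its ATP hydrolysis, and 3 of 7 were called higher over both guides, beside 18.6% of all tested genes. DNAJA1, a major cytosolic partner of HSC70, was at 161, 172 and 167 CPM in sgC, 239.6, 324 and 249.6 CPM in sgZ1, and 329, 311 and 354 CPM in sgZ3. Every library labelled knockout was well above sgC, and the log2 change over both guides was 0.85 (SE 0.10, adjusted p = 0.00023). DNAJB1, the inducible HSP40, was at 232, 234 and 219 CPM in sgC, 257, 308 and 279 CPM in sgZ1, and 411, 373 and 325 CPM in sgZ3. The 3 groups did not overlap, in the order sgC, sgZ1, sgZ3. DNAJB1 had a log2 change of 0.30 in sgZ1 (adjusted p = 0.048) and 0.70 in sgZ3 (adjusted p = 0.00069), with a difference of 0.39 between guides (adjusted p = 0.013). The sgZ1 call was fragile: without sgC replicate 1, 2 or 3 the adjusted p was 0.13, 0.10 and 0.16, without sgZ1 replicate 2 or 3 it was 0.12 and 0.095, without sgZ3 replicate 2 it was 0.071, and under RLE factors, upper-quartile factors and library totals it was 0.056, 0.061 and 0.058. The difference between guides was lost without sgZ1 replicate 1 (adjusted p = 0.069) or sgZ3 replicate 1 (0.068).

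DNAJB6, an inhibitor of aggregation, was at 102, 92.5 and 93.4 CPM in sgC, 106, 119.9 and 112 CPM in sgZ1, and 127, 123 and 127 CPM in sgZ3. Its groups did not overlap, and its log2 change over both guides was 0.31 (SE 0.075, adjusted p = 0.0093), lost without sgC replicate 2 (adjusted p = 0.053) or 3 (0.06). DNAJA2, a second partner of HSC70 in the cytosol, was at 184, 172 and 176 CPM in sgC, 168, 194 and 166 CPM in sgZ1, and 203, 199 and 209 CPM in sgZ3. Its sgZ3 libraries were above the others while sgZ1 straddled sgC, and it was not called over both guides (log2 change 0.10, adjusted p = 0.34). DNAJB4 averaged 19.7 ± 1.19 CPM in sgC, 20.3 ± 3.32 in sgZ1 and 17.1 ± 2.37 in sgZ3 and was not called over both guides (adjusted p = 0.64). DNAJC2, a ribosome-bound J-domain protein, was at 5.08 to 10.1 CPM, and 628 bases of its exons overlap those of PMPCB. DNAJC7 had 83 counts in all 9 libraries together and shares 401 and 484 exonic bases with CNP and NKIRAS2 on the opposite strand, so its level is uncertain, since the strand setting of the counting is not given in the sources used here.

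Of the HSP70 co-factors 1 of 4 was called higher over both guides, near the 18.6% of all tested genes. BAG1, a nucleotide exchange factor that links HSP70 to the proteasome, was at 53.8, 59.9 and 49.2 CPM in sgC, 65.0, 70.9 and 68.9 CPM in sgZ1, and 93.9, 95.3 and 78.5 CPM in sgZ3. The groups did not overlap, in the order sgC, sgZ1, sgZ3, with a log2 change of 0.52 over both guides (SE 0.095, adjusted p = 0.0020). The difference of 0.39 between guides (adjusted p = 0.019) was lost without sgZ1 replicate 1 (adjusted p = 0.079), without sgZ3 replicate 1 (0.076) or 2 (0.085), and with library totals alone (0.055). BAG3, the stress-inducible BAG protein of selective autophagy, was at 94.9, 88.2 and 96 CPM in sgC, 106, 76.3 and 113 CPM in sgZ1, and 81.1, 90.8 and 106 CPM in sgZ3. Both guides straddled sgC, and the interval of its log2 change over both was -0.20 to 0.28. BAG2, an inhibitor of the ubiquitin ligase CHIP, was at 80.3, 83.7 and 78.9 CPM in sgC, 85.8, 101 and 77.8 CPM in sgZ1, and 110.3, 100.1 and 94.3 CPM in sgZ3, with a log2 change of 0.23 over both guides (adjusted p = 0.083). BAG2 reads are also uncertain, as 2842 exonic bases overlap RAB23. ST13 (HIP), which stabilises the ADP form of HSP70, was at 491, 507 and 489 CPM in sgC, 521, 506 and 483 CPM in sgZ1, and 514, 479 and 499 CPM in sgZ3. It moved the least of this role, with an interval of -0.11 to 0.14, and 25.6% of its 50-base stretches also occur in other genes.

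All 8 subunits of TRiC had a mean log2 change above 0 over both guides, with a median of 0.35. Of the 8, 6 were called higher, beside 18.6% of all tested genes. By guide 3 of 8 were called higher in sgZ1 and 6 of 8 in sgZ3, beside 15.5% and 19.2% of all genes. CCT2, CCT6A and CCT7 were called in sgZ3 and not in sgZ1, but none of them was called for sgZ3 minus sgZ1 in the fit of all 9 libraries. The subunits form a double ring in equal numbers. Their summed level was 5876 ± 311 CPM in sgC, 6997 ± 682 in sgZ1 and 7633 ± 499 in sgZ3 (SD, n = 3 each). CCT3, the gamma subunit, was at 354, 382 and 357 CPM in sgC, 574, 623 and 609 CPM in sgZ1, and 519, 506 and 454 CPM in sgZ3. Its groups did not overlap, and CCT3 had the highest log2 change of the complex over both guides, 0.58 (SE 0.074, adjusted p = 0.00031). It was higher in sgZ1 than in sgZ3, by 0.29 on the log2 scale (sgZ3 minus sgZ1 -0.29, adjusted p = 0.022), a difference lost without sgZ1 replicate 3 (adjusted p = 0.053), without sgZ3 replicate 2 (0.06) and with the compared groups alone (0.077). TCP1, the alpha subunit, was at 620.2, 685 and 645 CPM in sgC, 846, 993 and 766 CPM in sgZ1, and 1006, 905 and 915 CPM in sgZ3. CCT5, the epsilon subunit, was at 664, 727 and 680.3 CPM in sgC, 797, 898 and 828 CPM in sgZ1, and 1013, 934 and 862 CPM in sgZ3. For both of these every library labelled knockout exceeded every control, with log2 changes over both guides of 0.48 and 0.36 (SE 0.089 and 0.077, adjusted p = 0.0023 and 0.0047).

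CCT6A, the zeta subunit, was at 721, 803 and 729 CPM in sgC, 869, 954 and 835 CPM in sgZ1, and 1038, 973 and 946 CPM in sgZ3. All libraries labelled knockout exceeded sgC, and its log2 change over both guides was 0.32 (SE 0.074, adjusted p = 0.0080). CCT2 and CCT7 were called with log2 changes of 0.38 and 0.34 (adjusted p = 0.016 and 0.018). The calls of these 3 subunits rested on the control libraries: without sgC replicate 1 the adjusted p was 0.061 for CCT6A, 0.081 for CCT2 and 0.082 for CCT7, and without sgC replicate 3 it was 0.052, 0.089 and 0.10. CCT4 and CCT8 were not called, with log2 changes of 0.09 and 0.07 and intervals of -0.07 to 0.25 and -0.06 to 0.20. Per kilobase of exon the sgC means ran from 90.8 CPM for CCT3, the lowest, through 118 for CCT5, 132 for TCP1, 148 for CCT8, 160.5 for CCT2, 192 for CCT6A and 318 for CCT7 to 384 for CCT4, the highest. The lengths join all annotated exons of a gene, from 2830 bases for CCT4 to 5839 for CCT5, so this order depends on the annotation. By CPM alone the sgC mean was highest for CCT7, at 1144, with CCT4 at 1087 and CCT3 again the lowest at 365. Per kilobase the highest subunit exceeded the lowest 4.19 to 4.28 times in the sgC libraries, 2.49 to 2.79 times in sgZ1 and 3.45 to 3.73 times in sgZ3, and these ranges did not overlap. This ratio describes only the highest and lowest subunit of each library and not the complex as a whole. CCT3, the lowest in sgC at 88.2 to 95.1 CPM per kilobase, was at 142.8 to 155.1 in sgZ1 and 112.9 to 129.1 in sgZ3.

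**Figure D3:**
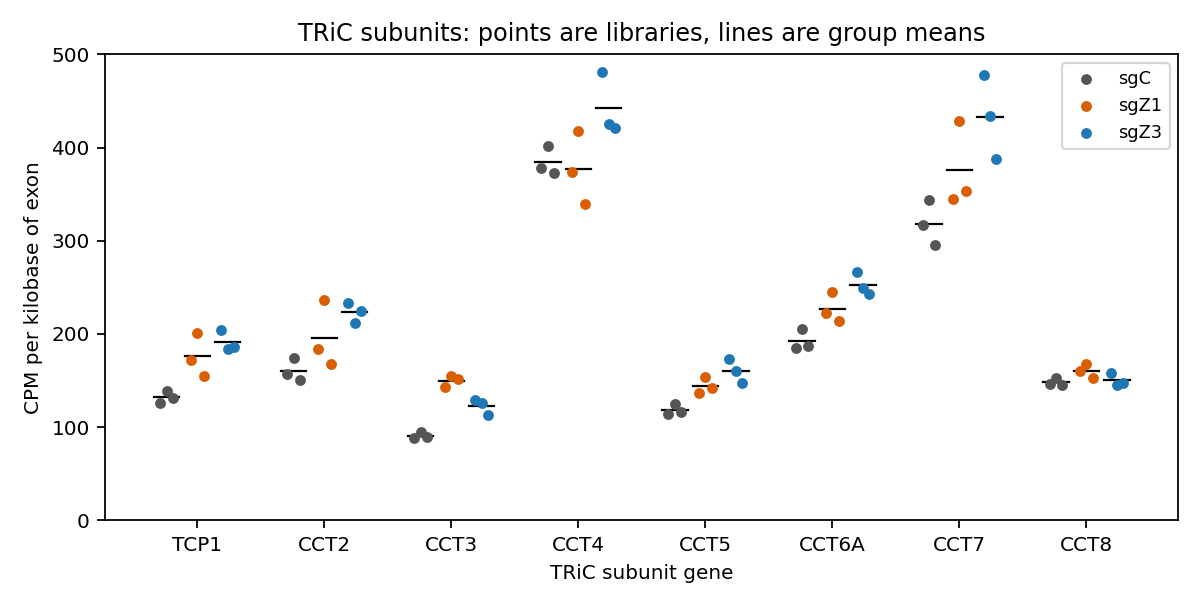
Levels of the 8 TRiC subunits by guide as CPM per kilobase of exon, with points for the 3 libraries of each guide and lines for the group means. CCT3 has the lowest sgC level at 90.8 and CCT4 the highest at 384, and CCT4 and CCT8 are the pair that was not called over both guides.

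Of the mitochondrial chaperones 4 of 5 were called higher over both guides, beside 18.6% of all tested genes, with a median log2 change of 0.29. By guide 3 of 5 were called higher in sgZ1 and 3 of 5 in sgZ3, beside 15.5% and 19.2% of all genes. HSPD1 and HSPE1 encode HSP60 and its lid HSP10, which fold imported proteins in the matrix, and are transcribed in opposite directions from neighbouring starts on chromosome 2. HSPD1 was at 1111, 1189 and 1130.4 CPM in sgC, 1469, 1461 and 1316 CPM in sgZ1, and 1402, 1282 and 1456 CPM in sgZ3, and HSPE1 was at 50.8, 62.4 and 47.4 CPM in sgC, 67.7, 80.8 and 79.5 CPM in sgZ1, and 102, 90.6 and 63.2 CPM in sgZ3. For each of them all libraries labelled knockout were above sgC, although sgZ3 replicate 3 of HSPE1 was just above the highest control. Log2 changes over both guides were 0.29 for HSPD1 (SE 0.072, adjusted p = 0.011) and 0.59 for HSPE1 (SE 0.14, adjusted p = 0.010). Both calls were lost without sgC replicate 1 (adjusted p = 0.07 and 0.062) or 3 (0.057 and 0.065). The call of HSPD1 in sgZ3 was lost under 7 of 17 alternatives. Over the 7 libraries its log2 change in sgZ3 was 0.18 (adjusted p = 0.058). The exons of the pair overlap by 281 bases, and 13.2% and 11.7% of their 50-base stretches occur in other genes, so part of their counts is uncertain.

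TRAP1, the mitochondrial HSP90, was at 191, 187 and 181 CPM in sgC, 218, 236 and 242 CPM in sgZ1, and 235, 224 and 199 CPM in sgZ3. DNAJA3, a mitochondrial J-domain protein, was at 71.2, 68.8 and 70.9 CPM in sgC, 78.4, 99.2 and 79.6 CPM in sgZ1, and 110.4, 100.4 and 82.6 CPM in sgZ3. Neither gene's sgC range overlapped the others, and the log2 changes over both guides were 0.28 (SE 0.077, adjusted p = 0.018) and 0.38 (SE 0.11, adjusted p = 0.019). Without sgC replicates 1, 2 or 3 the adjusted p was 0.067, 0.063 and 0.095 for TRAP1 and 0.077, 0.072 and 0.074 for DNAJA3, and for TRAP1 it was 0.07 with library totals alone. HSPA9, the mitochondrial HSP70 mortalin, averaged 577 ± 17.5 CPM in sgC, 606 ± 26.2 in sgZ1 and 560.3 ± 47.2 in sgZ3 and was not called (log2 interval -0.13 to 0.16 over both guides).

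The guides differed from each other at some chaperone genes, less often than over all tested genes. Of the 42, 3 were called higher and 4 lower in sgZ3 than in sgZ1 (7.1% and 9.5%), where 12.8% and 15.8% of all tested genes were called and 28.6% in either direction. HSPA8, DNAJB1 and BAG1 were the higher genes, and FKBP5, CHORDC1, HSF1 and CCT3 the lower. The differences of HSPA8 (0.70) and FKBP5 (-0.63) kept their call under every alternative, and the other 5 lost it under at least 1. In the plot of each gene's change by guide, HSPA8 and FKBP5 have widely separated points.

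**Figure D4:**
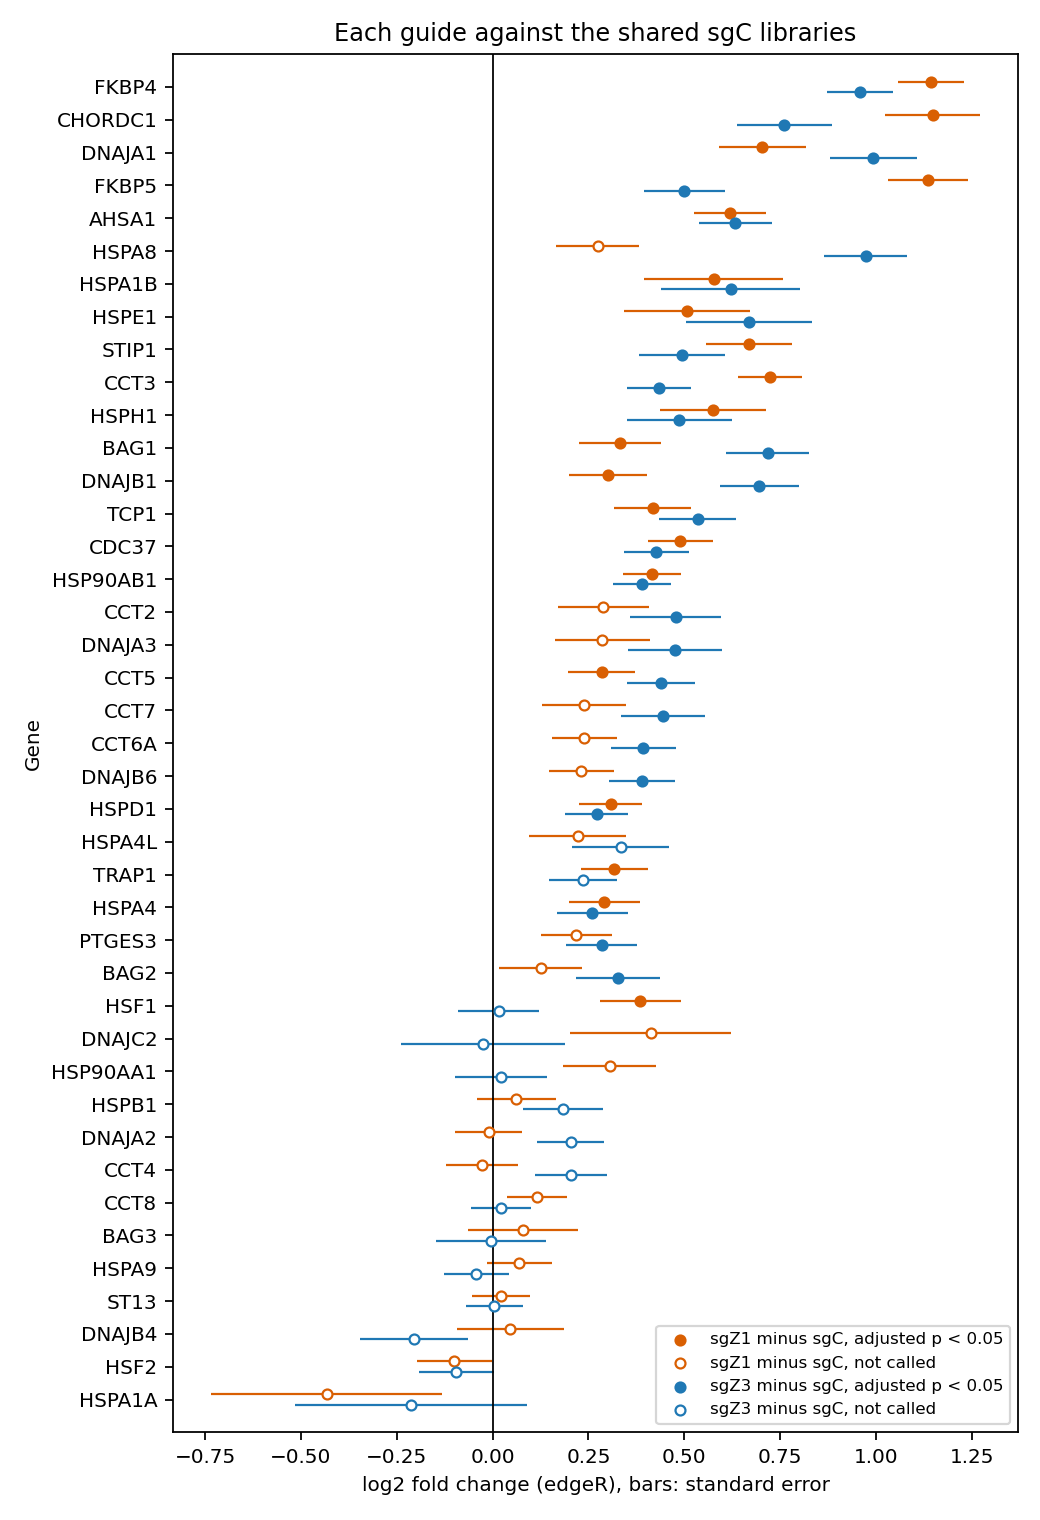
Log2 change against the shared sgC libraries for sgZ1 and sgZ3 on the horizontal axis, for 41 genes in rows ordered by their change over both guides, with DNAJC7 left out. Points are edgeR estimates with their standard errors, filled where called and open where not. HSPA8 is at 0.27 in sgZ1 and 0.97 in sgZ3, and FKBP5 at 1.14 and 0.50.

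Without sgZ1 replicate 2 and sgZ3 replicate 3 the guides parted further. Over these 7 libraries 12 of the 42 genes were called higher and 12 lower in sgZ3 than in sgZ1, beside 23.2% and 29.9% of all genes, so the share called (24 of 42) was near the 53.2% of the whole table. The genes lower in sgZ3 than in sgZ1 were HSP90AA1 (-0.54, adjusted p = 9.0e-06), HSPH1 (-0.37, adjusted p = 0.0015), BAG3 (-0.38, adjusted p = 0.0013) and HSPA1B (-0.31, adjusted p = 0.041), with DNAJC2, STIP1, FKBP5, HSF1, DNAJB4, CHORDC1, CCT3 and HSPA9. Those higher in sgZ3 were HSPA8 (0.82, adjusted p = 2.1e-08), DNAJB1 (0.51, adjusted p = 1.8e-05) and BAG1, with DNAJA1, DNAJA2, BAG2, CCT2, CCT4, CCT5, CCT7, HSPE1 and DNAJA3. Against sgC the same libraries gave 23 genes higher and 0 lower in sgZ1, beside 22.0% and 17.5% of all genes (39.5% in either direction), and 26 higher and 3 lower in sgZ3, beside 23.9% and 31.3% (55.3%). The 3 lower genes were HSP90AA1, HSPA1A and DNAJB4 (-0.38, adjusted p = 0.0085). This fit has 2 libraries in each group labelled knockout and 3 in sgC. What part the VIM-bearing libraries' other transcripts have in these differences was not tested.

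**Figure D5:**
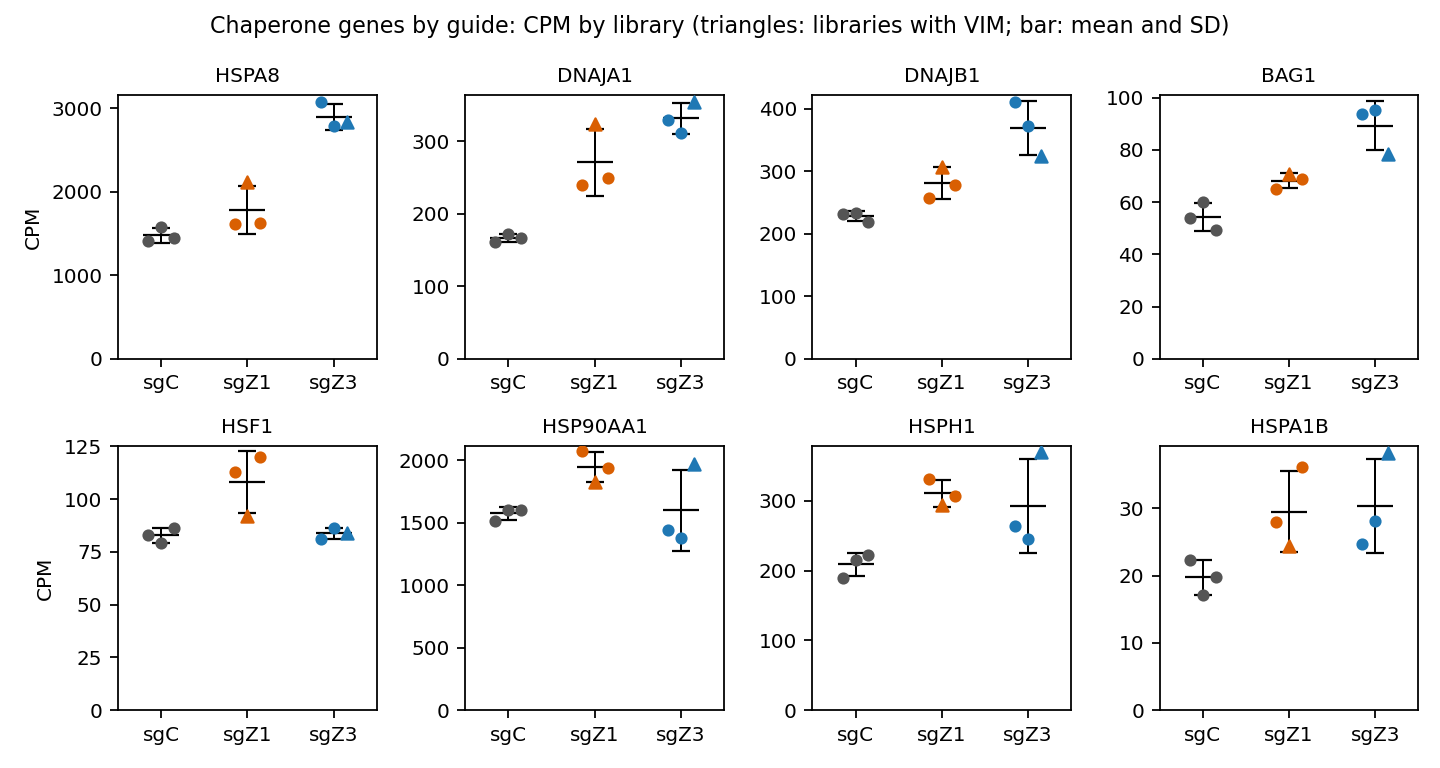
CPM by library of HSPA8, DNAJA1, DNAJB1, BAG1, HSF1, HSP90AA1, HSPH1 and HSPA1B, on linear axes from 0. Points are libraries, with sgZ1 replicate 2 and sgZ3 replicate 3, which carry VIM, as triangles, and bars are the mean with the SD. HSPA8 is at 2787 to 3076 CPM in sgZ3 and at most 2119 CPM elsewhere, and the triangle of HSP90AA1 in sgZ3 is at 1972 CPM, above 1443 and 1381 CPM.

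The promoter stretches shown above were set beside the calls. A gene was counted as holding a form if any of its windows held it. Of the 24 genes with a window that were called higher over both guides 11 held a pair and 6 the 3-repeat form, and of the 14 not called 8 held a pair and 1, HSP90AA1, the 3-repeat form. Genes with the same 3-repeat form therefore included HSPA8, called in sgZ3, CHORDC1, with its larger change in sgZ1, and HSP90AA1, which neither guide called in the fit of all 9 libraries. Genes without a pair in their windows that were called higher included FKBP5, AHSA1, CDC37 and BAG1. No statement about HSF1 binding follows from letters alone.

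Other genes of the chaperone network were listed by function, 74 in all with 71 tested. Over both guides 24 were called higher and 4 lower, beside 18.6% and 14.6% of all genes, with a median log2 change of 0.17. Among 15 further HSP90 co-chaperones and R2TP genes 6 were higher and 0 lower. NUDC, an HSP90-associated protein, averaged 140.1 ± 14 CPM (sgC), 243 ± 21.6 (sgZ1) and 210.2 ± 6.26 (sgZ3) (log2 change 0.69, adjusted p = 0.00030), CACYBP from 241 ± 22.8 to 326 ± 39.1 and 345 ± 16.6 CPM (adjusted p = 0.0028), and RUVBL2, an ATPase of R2TP, from 256 ± 18.1 to 346 ± 33.5 and 350.0 ± 32.4 CPM (adjusted p = 0.0038). Prefoldin, which hands actin and tubulin to TRiC, the other TRiC helpers and tubulin cofactors had 4 of 13 higher and 1 lower, and their calls for PFDN2 (log2 change 0.48, adjusted p = 0.011), PDCL3 (0.32, 0.016) and PFDN6 (0.39, 0.018) were all lost without sgC replicate 1 (adjusted p = 0.061, 0.083 and 0.093) or 3 (0.073, 0.066 and 0.099). PDCL3 also lost its call without sgC replicate 2 (0.058) and with library totals alone (0.06). Of 12 other mitochondrial chaperones and proteases 4 were higher and 1 lower. GRPEL1, the exchange factor of mortalin, rose from 75.0 ± 4.90 to 109 ± 1.81 and 119.8 ± 16 CPM (adjusted p = 0.00090), and DNAJC11 from 48.3 ± 3.89 to 67.9 ± 3.72 and 59.4 ± 4.52 CPM (adjusted p = 0.0058). CLPP, a matrix protease subunit, was called at a log2 change of 0.42 (adjusted p = 0.021) and lost the call without sgC replicate 1 (0.09) or 3 (0.11).

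Among 20 other HSP70 and J-domain genes 7 were higher and 2, HSPA13 and DNAJC18, lower, beside 18.6% and 14.6% of all genes. The call of HSPA13 ended without sgC replicate 1, 2 or 3 (adjusted p = 0.061, 0.051 and 0.052) and that of DNAJC18 without sgC replicate 1 (0.052). HSPBP1, an exchange factor of HSP70, went from 105 ± 8.13 to 155 ± 17.8 and 177 ± 20.9 CPM (adjusted p = 0.00097). DNAJA4, a J-domain protein, was at 0.487, 0.268 and 0.0853 CPM in sgC, 8.80, 10.3 and 9.36 CPM in sgZ1, and 0.271, 0.271 and 0.457 CPM in sgZ3, high in sgZ1 alone among these groups, with a difference between guides of -4.78 on the log2 scale (adjusted p = 6.2e-07). HSPA12A followed the same order, at 4.74 ± 0.534, 10.3 ± 0.368 and 5.26 ± 0.901 CPM, with a difference of -0.96 (adjusted p = 0.00071). Of 11 other heat-inducible genes 3 were higher and 0 lower, beside the same shares of all genes. HSPA6, the strictly inducible HSP70, was at 0.246 to 1.46 CPM in the 9 libraries and was not called (adjusted p = 0.52 over both guides), and UBB, IER5, ZFAND2A and DEDD2 were not called over both guides either. In sgZ3 alone 3 of the 11 were called higher and 1 lower, beside 19.2% and 17.1% of all genes. UBB and DEDD2 were among the higher, and those calls were lost under 6 and 8 alternatives. SERPINH1, the collagen chaperone HSP47, went from 106 ± 2.64 to 124 ± 11.9 and 155 ± 11.6 CPM (adjusted p = 0.0051), and HSBP1 from 126 ± 11.9 to 163 ± 10.5 and 145 ± 13.2 CPM (adjusted p = 0.027), a call lost without sgC replicate 1 (0.14) or 3 (0.13), without sgZ3 replicate 1 (0.059) or 2 (0.061) and with library totals alone (0.084). HSPB8, the small heat shock protein that works with BAG3, had at most 0.0536 CPM in sgC, 2.75, 4.09 and 2.96 CPM in sgZ1, and 0, 0 and 1.27 CPM in sgZ3, the last in the VIM-bearing replicate 3. Its call over both guides (adjusted p = 0.013) was lost without sgZ3 replicate 3 (0.96), without sgC replicate 1 (0.088), 2 (0.095) or 3 (0.10), and over the 7 libraries (0.95).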

How the data were processed

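The data were poly(A) RNA-seq from 9 DLD1 libraries, 3 per guide, grouped by their titles. One sgC sample, whose description points to the table of ribosomal RNA, was kept here by its title and molecule. The deposited table holds whole-number counts per gene, not normalized, as the authors made them. STAR 2.5.2b, SAMtools 1.9, HTSeq, DESeq2 and the builds hg38 and GRCh38 are named per the submitters' processing notes, with no role or order. Neither the strand setting nor the annotation release is given in the sources used here.

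The tests were run with edgeR 4.0.16 in R 4.3.3: filterByExpr, TMM factors, robust quasi-likelihood models of all 9 libraries, the guide being the only term, and Benjamini-Hochberg adjustment over the 14732 tested genes of 47021, with calls at an adjusted p under 0.05. The biological coefficient of variation was 12.7%. The contrasts set against sgC were sgZ1, sgZ3 and their mean, and sgZ3 minus sgZ1 gave the difference between guides. The steps were tested on simulated counts. Gene lengths and exon overlaps came from GENCODE 29 (GRCh38), which held 99.2% of tested IDs, and promoters from RefSeq GRCh38.p14. Replicate libraries of a group differed by more than counting noise, so none was counted as a copy.

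Members, lists and tests were chosen with earlier results of these data known. Values in every library are given for HSF1 and HSF2, for up to 4 members of each other role with the smallest adjusted p over both guides, and for members whose guides differ by a called log2 change of at least 0.5. Of the other 74 listed genes, the text names up to 3 per list, by smallest adjusted p. DNAJC18, HSPA13, HSPA6 and the genes named after HSPA6 as not called fall outside this rule and were picked after their values were seen.

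Alternatives left out each library in turn or the VIM-bearing pair, used replicate numbers as a block, fitted only the groups compared, dropped the filter on low counts, scaled by library totals, upper quartiles or RLE, or used DESeq2 1.42.0. Summing HSPA1A and HSPA1B was added after the data were seen.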

Additional observations from a re-analysis of the deposited data

Results flagged for a closer look

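For 7 of the 42 genes the change against sgC differed between the guides by the edgeR test of sgZ3 minus sgZ1, a contrast that called 28.6% of all tested genes. The shares of the 42, 7.1% higher and 9.5% lower, were below the 12.8% and 15.8% of all tested genes. HSPA8 was higher in sgZ3 by 0.70 on the log2 scale, DNAJB1 by 0.39 and BAG1 by 0.39. FKBP5 had a difference of -0.63, CHORDC1 of -0.39, HSF1 of -0.37 and CCT3 of -0.29, so each of these was higher in sgZ1. In sgZ3 all 3 libraries of HSPA8, and in sgZ1 all 3 libraries of FKBP5, were above the libraries of the other guide.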

How the results depend on the processing

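Leaving out 1 library at a time gave 15 to 27 of the 42 genes called higher over both guides, 9 to 23 for sgZ1 and 21 to 26 for sgZ3, with 0 to 0 lower over both guides, and 1 to 9 higher and 1 to 8 lower for sgZ3 minus sgZ1. For the 71 related genes the ranges were 9 to 28 higher and 0 to 7 lower over both guides, 9 to 21 and 0 to 4 for sgZ1, 9 to 30 and 2 to 10 for sgZ3, and 0 to 13 and 5 to 12 for sgZ3 minus sgZ1. The share of all tested genes called higher in the same fits also moved. It ran from 8.96 to 22.0% over both guides, 9.5 to 18.8% in sgZ1 and 11.7 to 22.6% in sgZ3. For sgZ3 minus sgZ1 it ran from 6.88 to 19.1%. Of all calls, 51.2 to 61.8% were higher over both guides and 41.4 to 46.7% for sgZ3 minus sgZ1. Over the 7 libraries 1 of the 42 was lower over both guides and 3 in sgZ3, 12 were higher and 12 lower for sgZ3 minus sgZ1, and the related genes had 9 lower over both guides, 5 lower in sgZ1, 13 lower in sgZ3, and 21 higher and 19 lower for sgZ3 minus sgZ1. Of all genes in that fit 26.6% were lower over both guides, 17.5% in sgZ1 and 31.3% in sgZ3. For sgZ3 minus sgZ1 23.2% were higher and 29.9% lower. HSP90AA1 in sgZ3 went from 0.02 to -0.20, and HSPA1B for sgZ3 minus sgZ1 from 0.04 to -0.31. With library totals alone 7 of the 42 were lower for sgZ3 minus sgZ1, and the related genes had 8 lower over both guides, 10 higher and 15 lower in sgZ3, and 1 higher and 14 lower for sgZ3 minus sgZ1. Of 14732 tested genes, that setting called 5150 over both guides, 5873 in sgZ3 and 4251 for sgZ3 minus sgZ1. Of those calls 36.6%, 29.6% and 27% were higher. Upper-quartile factors gave 7 related genes lower over both guides and 15 higher in sgZ3. Of all 4960 calls over both guides in that setting 45.9% were higher, and 15.5% of all tested genes were higher in sgZ3. Fits of the compared groups only gave 1 of the 42 lower, and 1 related gene higher and 5 lower, for sgZ3 minus sgZ1. That fit called 3033 of 14335 tested genes, 43.3% of them higher. Related genes higher for sgZ3 minus sgZ1 were 5 with DESeq2 and 5 without a filter on low counts, which gave 1 lower in sgZ1. Of all tested genes 14.3% and 6.59% were higher for that contrast. Without the filter 4368 of 28999 genes were called in sgZ1, 66.1% of them higher. The cause of these shifts was not tested.

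Replicate numbers were not shown to pair the libraries: deviations of same-numbered libraries correlated at -0.121 to 0.249, 3 of 9 pairs were over 0.1, and 4 of 9 libraries correlated best with their own number. With the replicate block 26, 21 and 27 of the 42 genes were higher over both guides, in sgZ1 and in sgZ3, 4 were higher and 5 lower for sgZ3 minus sgZ1, and the related genes had 7 lower over both guides and 5 higher for sgZ3 minus sgZ1. Of all tested genes 20.2%, 16.9%, 20.8% and 15.4% were higher in these 4 comparisons. Of 5488 calls over both guides 54.2% were higher, and of 5005 for sgZ3 minus sgZ1 45.3%. The block ended the call of HSPB8 over both guides (adjusted p = 0.051) and gave one for HSP90AA1 in sgZ1 (0.0499).

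With HSPA1A and HSPA1B summed, chosen after seeing the data, the sgZ1 call was lost (adjusted p = 0.056). The calls over both guides and in sgZ3 were kept. DNAJC7 and HSPA1A had few counts, 83 and 355 over all libraries, besides the exon overlap and shared sequence given above.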
